A study of Gallus gallus with 4 samples.

Results

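RPS20, RPL39 and EIF4G2 are genes of the translation machinery. They were taken by their Ensembl identifiers, ENSGALG00000014432 for RPS20, ENSGALG00000008620 for RPL39 and ENSGALG00000005587 for EIF4G2, and every exon part that the count table lists under these identifiers was kept. They are 3 of the 24513 gene identifiers in the table, and their 36 exon parts are among 220717. Exon parts are the pieces into which the exon boundaries of all annotated transcripts divide a gene, and they are numbered along the chromosome. The choice of the genes used no measured value of the comparison directly, but it was made with earlier results of these data known. The study names all 3 among the genes of the exons that contributed most to its principal component analysis of these same lanes. It also lists all 3 among the genes that an earlier gene-level analysis of this dataset had called. Of the 36 exon parts, 25 are among the exons that the study had called. Counts of calls in the 3 genes are therefore not those of unselected genes.

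Both groups were chick embryos of the Special black strain at Hamburger-Hamilton stage 8 to 9, incubated for 27 hr, and the tissue was the cranial headfold in pools of 23. The alcohol group had received 0.43 mmol of ethanol, given by the study as 52 mM, with a 90 min exposure and collection at 6 hr. The control group had received isotonic saline in its place. Each group was read on 2 lanes, called lane 1 and lane 2 and given in this order, of a sequencing run of its own, so that treatment and run cannot be told apart. Whether both lanes of a group came from 1 pool or from separate ones is not given in the labels, and the p-values given here therefore measure the spread between lanes, which may be technical.

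Ribosomal proteins and ribosomal RNA build the 2 subunits of the ribosome, and cells make the ribosomal proteins in matched amounts. In vertebrates their messenger RNAs are short, abundant and translated under the control of growth signals. EIF4G2, also known as DAP5 or NAT1, is a relative of the scaffold protein eIF4G that lacks the part which binds the cap-binding factor, and it serves initiation on a subset of messenger RNAs, in cell differentiation among other settings. RPS20 belongs to the small subunit and RPL39 to the large subunit, where it lies near the tunnel through which the growing peptide leaves.

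The alcohol lanes held 15388474 and 16991925 assigned counts, against 20951322 and 20861872 in the control lanes. Mitochondrial genes took 33.3% and 32.9% of the counts in alcohol lanes and 44.2% in each control lane. The control lanes differed by little more than sampling noise (chi-square per degree of freedom 1.04 over 16862 genes) and were summed to 1 library, whereas the alcohol lanes (5.68 over 16910 genes) were kept as 2. All intervals given cover counting error only. The tissue label could not be checked against markers, since none of the 21 marker symbols considered is paired with an identifier in the sources used here. In pooled tissue, fewer cells of a type and less RNA per cell cannot be told apart.

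RPS20 and RPL39 were lower after alcohol, and EIF4G2 did not pass the test. With TMM scaling, which sets the bulk of genes to no change, RPS20 fell to 0.612 and RPL39 to 0.674 of the control level, a log2 change of -0.71 for RPS20 and of -0.57 for RPL39, while the fitted change of EIF4G2 was 0.20. Among 18093 genes tested, 11.7% were called lower and 15.6% were called higher at a false discovery rate of 0.1, against 2 of the 3 genes called lower and 0 called higher. Relative to EIF4G2 in the same lane, the counts after alcohol were 0.534 of the control ratio for RPS20 and 0.588 for RPL39.

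RPS20 (chromosome 2, 111559784 to 111562438, minus strand, Gallus gallus 5.0) encodes a protein of the head of the small subunit. It had 8174 and 8367 counts in the alcohol lanes, against 13746 and 13622 in the control lanes. Scaled to all assigned counts these were 531 and 492 CPM after alcohol, against 656 and 653 CPM in control, where CPM is the usual scale that gives every lane the same total. Both alcohol lanes lay below both control lanes, and the counting interval of the higher alcohol lane (519.7 to 543 CPM) ended below that of the lower control lane (642 to 664 CPM). The share of all genes whose levels separate the lanes in this way was not counted, which holds for RPL39 and EIF4G2 as well. The mean was 512 ± 27.4 CPM after alcohol (SD, n = 2 lanes) and 655 CPM in control. With TMM scaling the log2 change was -0.71 (SE 0.13, Benjamini-Hochberg adjusted p = 2.76e-04 in edgeR's quasi-likelihood test). This change stood at percentile 7.71 of the changes of all genes tested.

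RPL39 (chromosome 4, 16567059 to 16569428, plus strand) encodes a very small protein of the large subunit. It had 7970 and 7991 counts in the alcohol lanes, against 11952 and 12038 in the control lanes, or 518 and 470.3 CPM after alcohol against 570.5 and 577 CPM in control. Its alcohol lanes too lay below both control lanes, by a smaller margin than those of RPS20, with a mean of 494 ± 33.7 CPM after alcohol (SD, n = 2 lanes) and 574 CPM in control. The log2 change was -0.57 (SE 0.13, Benjamini-Hochberg adjusted p = 0.00246 in edgeR's quasi-likelihood test), at percentile 11.4 of all genes. The chicken reference of a later assembly, GRCg7b, lists RPL39 as a synonym of RPL39L on the same chromosome. Ribosomal protein genes have near-identical copies in many vertebrate genomes, and how far reads of such copies entered the counts of RPS20 and RPL39 was not tested.

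EIF4G2 (chromosome 5, 8752708 to 8763946, plus strand) had 27598 and 27338 counts in the alcohol lanes, against 24710 and 23849 in the control lanes. Scaled to all assigned counts these were 1793 and 1609 CPM after alcohol, against 1179 and 1143 CPM in control. Both alcohol lanes lay above both control lanes on this scale, with a mean of 1701 ± 130.5 CPM after alcohol (SD, n = 2 lanes) and 1161 CPM in control. The scale itself moved most genes up. On it the median log2 change of all genes was 0.36, against 0.55 for EIF4G2, and 39.9% of genes were called higher and 3.33% lower. With TMM scaling the log2 change was 0.20 (SE 0.13, Benjamini-Hochberg adjusted p = 0.298 in edgeR's quasi-likelihood test), at percentile 63.9 of all genes. It was 0.103 without alcohol lane 1 and 0.28 without alcohol lane 2.

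**Figure D1:**
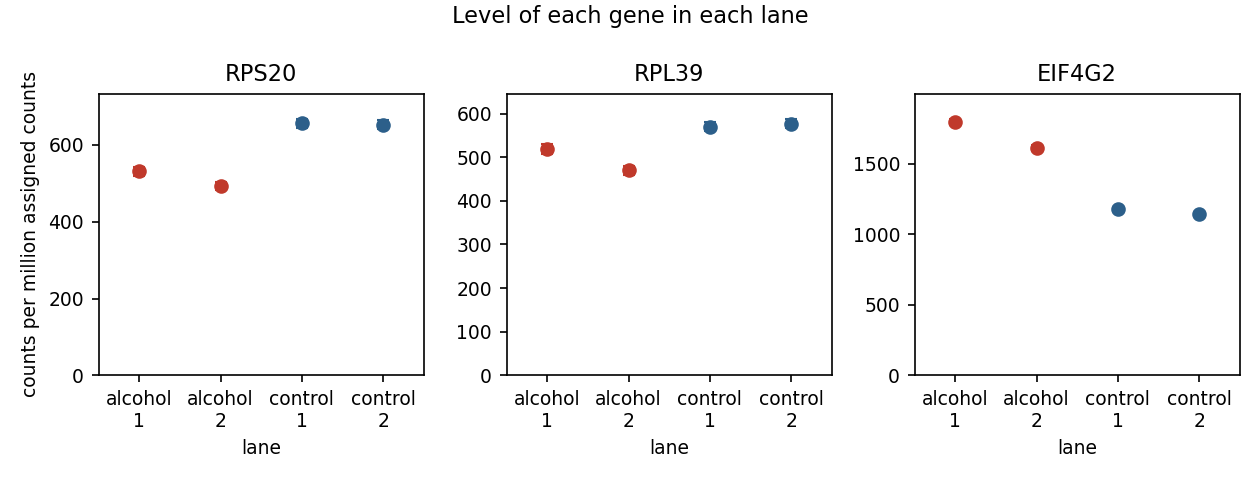
Level in CPM (vertical axis, from 0) of each gene in each lane, alcohol lanes at left in red and control lanes in blue, with 95% counting intervals that are mostly smaller than the points. RPS20 stood at 531 and 492 after alcohol against 656 and 653 in control, RPL39 at 518 and 470.3 against 570.5 and 577, and EIF4G2 at 1793 and 1609 against 1179 and 1143.

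Levels of different genes were compared per length of all exon parts, 493 bases for RPS20, 480 bases for RPL39 and 4219 bases for EIF4G2. RPS20 had 1077 and 999 CPM per kilobase in alcohol lanes and 1331 and 1324 CPM per kilobase in control lanes. RPL39 had 1079 and 979.8 CPM per kilobase in alcohol lanes, and 1188 and 1202 in control lanes. EIF4G2 had 425 and 381 CPM per kilobase in alcohol lanes, and 279.5 and 271 in control lanes. The ribosomal protein genes were thus the higher ones per length of all exon parts in every lane, and in both alcohol lanes RPS20 and RPL39 could not be told apart within counting error. With parts of at least 75 bases alone, RPS20 was the higher in every lane, at 1629 and 1514 CPM per kilobase in alcohol lanes and 2033 and 2022 in control lanes, against 1199 and 1088 for RPL39 in alcohol lanes and 1320.2 and 1335 in control lanes. The gap to EIF4G2 depended on the length used. In the part with the most counts alone, RPS20 had 2323 and 2150 CPM per kilobase in alcohol lanes and 2907 and 2890 in control lanes. RPL39 had 1516 and 1369 after alcohol and 1692 and 1710 in control. EIF4G2 had 1463 and 1279 after alcohol, near RPL39, and 1009 and 978 in control. Of the 21593 genes with counts, RPS20 ranked 21 and 22 per length in alcohol lanes and 18 in both control lanes. RPL39 ranked 20 and 23 after alcohol and 21 in both control lanes. EIF4G2 ranked 57 and 67 after alcohol, against 147 and 158 in control. Per length, the ranks of the ribosomal protein genes thus differed little between the groups, while EIF4G2 stood higher in both alcohol lanes. By counts without regard to length, RPS20 ranked 128 and 138 in alcohol lanes, against 73 in both control lanes, and RPL39 ranked 135 and 149 after alcohol, against 85 and 84 in control. On that scale it was the ribosomal protein genes that differed more in rank, since EIF4G2 ranked 21 and 24 after alcohol, against 33 and 34 in control.

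The alcohol lanes differed from each other more than the control lanes did. The log2 ratio of CPM between the 2 alcohol lanes was 0.11 for RPS20, 0.14 for RPL39 and 0.16 for EIF4G2, and between the 2 control lanes it was 0.01, -0.02 and 0.04. The same alcohol lane was the higher one for all 3 genes. Over 7361 genes with at least 1000 counts, the 10th and the 90th percentile of these ratios were -0.35 and 0.18 for the alcohol lanes and -0.10 and 0.10 for the control lanes, so none of the 3 genes stood outside.

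The contrast between the ribosomal protein genes and the translation factor does not depend on scaling when it is taken as a ratio within a lane. The log2 ratio of RPS20 to EIF4G2 counts was -1.76 and -1.71 in alcohol lanes, against -0.85 and -0.81 in control lanes. The difference was -0.90 (counting interval -0.94 to -0.87), or 0.534 of the control ratio, and the SD between the alcohol lanes was 0.03. The log2 ratio of RPL39 to EIF4G2 was -1.79 and -1.77 in alcohol lanes, against -1.05 and -0.99 in control lanes. The difference was -0.77 (counting interval -0.80 to -0.73), or 0.588 of the control ratio, with an SD of 0.01 between the alcohol lanes. No lane of a group lay among those of the other group. The ratios were not put to a test, and how many other pairs of genes separate the lanes in this way was not counted.

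The ratio of RPS20 to RPL39 differed less between the groups. Their log2 ratio was 0.04 and 0.07 in alcohol lanes, against 0.20 and 0.18 in control lanes. The difference of -0.14 (counting interval -0.18 to -0.10) was a fraction of either contrast with EIF4G2. The SD between the alcohol lanes was 0.02, and whether such a difference exceeds the spread between separate pools cannot be told from these lanes. When only the exon part with the most counts was taken for each gene, the differences were -0.84 for RPS20 against EIF4G2, -0.70 for RPL39 against EIF4G2 and -0.14 for RPS20 against RPL39.

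**Figure D2:**
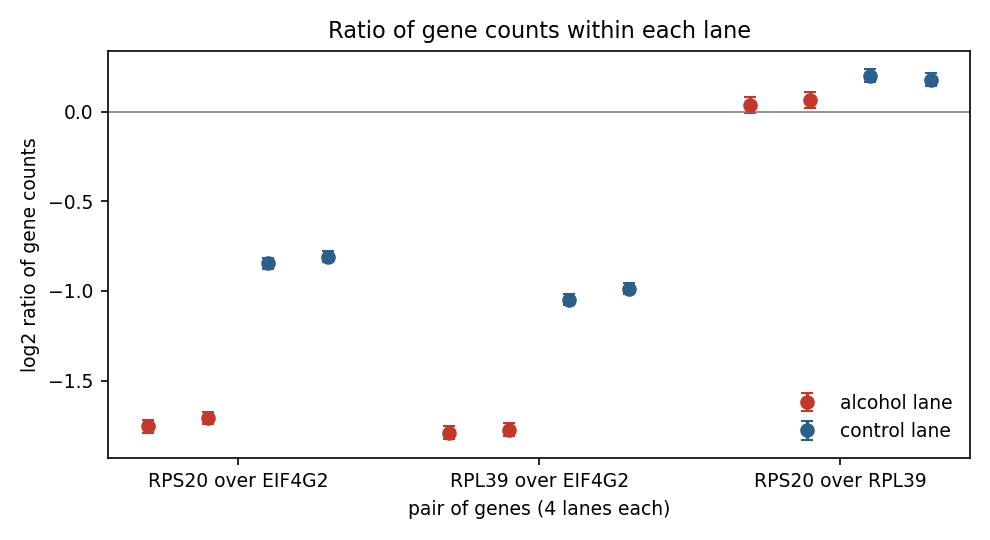
Log2 ratio of the counts of 2 genes (vertical axis) within each lane for 3 pairs, alcohol lanes in red left of control lanes in blue, with 95% counting intervals. The RPS20 to EIF4G2 ratio lay at -1.76 and -1.71 after alcohol against -0.85 and -0.81 in control, and the RPS20 to RPL39 ratio at 0.04 and 0.07 against 0.20 and 0.18.

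The change of a single gene depended on the scaling. When only the total of all counts was used, the median of all genes moved to 0.36, the log2 changes were -0.35 for RPS20 (adjusted p = 0.0174), -0.22 for RPL39 (adjusted p = 0.170) and 0.55 for EIF4G2 (adjusted p = 1.38e-04), and 92.3% of the genes called were higher, against 57.2% with TMM (all by quasi-likelihood test in edgeR, Benjamini-Hochberg adjusted). On that scale RPL39 was no longer called, and EIF4G2 was called higher. With the total less the mitochondrial counts the changes were -0.62, -0.48 and 0.29, the median of all genes was 0.10, and 72.2% of the genes called were higher. Relative to the median of all genes, the 4 scalings gave a change of -0.72 for RPS20, of -0.58 for RPL39 and of 0.18 to 0.19 for EIF4G2. A scaling moves all genes nearly alike, so this likeness follows from the calculation and is no test. The sign of the change was the same under the 4 scalings for each of the 3 genes. With each lane as a library of its own, EIF4G2 was called higher (0.20, adjusted p = 0.0299).

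**Figure D3:**
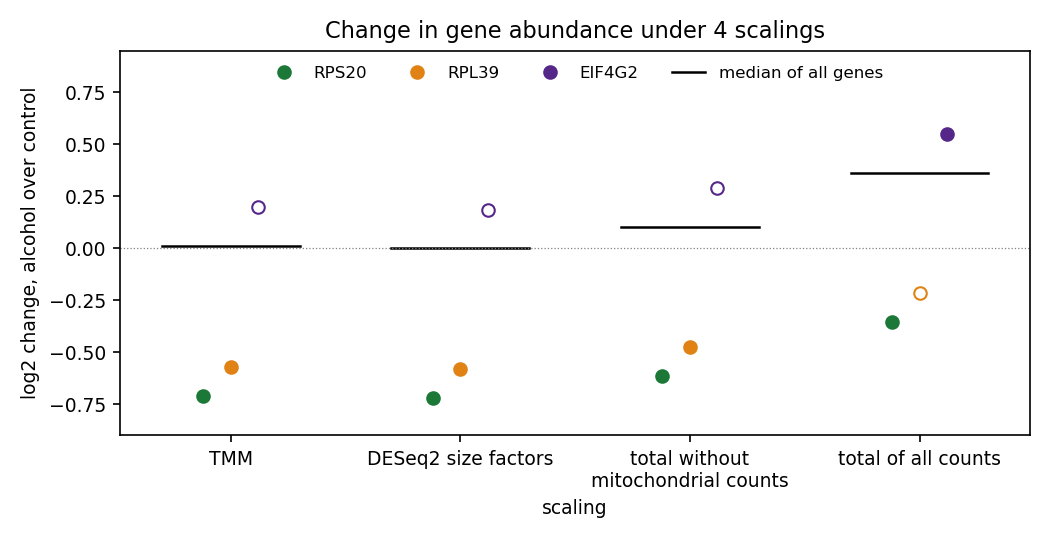
Log2 change of gene abundance, alcohol over control (vertical axis), under 4 scalings, with filled points for an adjusted p below 0.1 and black bars for the median of all genes. Of these, the total of all counts alone called EIF4G2, at 0.55, where the median of all genes was 0.36, and RPL39 was not called there, at -0.22.

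Of other translation genes, only EEF1A1 is among the single identifiers for which a symbol was taken from the tables of the study. EEF1A1 brings aminoacyl-tRNAs to the ribosome during elongation. It had 2385 and 2342 CPM in alcohol lanes and 2649 and 2631 CPM in control lanes, with a log2 change of -0.51 (SE 0.12, Benjamini-Hochberg adjusted p = 0.00259 in edgeR's quasi-likelihood test). It was thus called lower as RPS20 and RPL39 were, and with the total of all counts it was not called, as RPL39 was not (-0.16, adjusted p = 0.256). The deposited table holds a group for ribosome biogenesis, which also takes in spliceosome, RNA transport and mTOR pathways, and RPS20, RPL39 and EIF4G2 are in it. Of the 268 other genes of this group, 248 were tested, of which 65 (26.2%) were lower, 16 (6.45%) were higher and 167 did not pass. Their median log2 change was -0.19 with TMM, against 0.01 over all genes tested, and 0.17 with the total of all counts, against 0.36 over all genes. On that scale 10 (4.03%) were lower and 82 (33.1%) higher, against 3.33% and 39.9% of all genes. With the total less mitochondrial counts the median was -0.09, and 35 (14.1%) were lower and 21 (8.47%) higher, against 7.26% and 18.9% of all genes. The study formed the group from exons that it had called in these same lanes, so this is not independent evidence of a direction.

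The genes with the profile most like each of the 3 over the 4 lanes were sought among 35 others for which a symbol was taken from the study's tables, by the Euclidean distance between centred log2 CPM values. For RPS20 they were NME2, a nucleoside diphosphate kinase (distance 0.094), and RPL39 (0.141). For RPL39 they were RAN, the GTPase of nuclear transport (0.0997), and EEF1A1 (0.10). For EIF4G2 they were DDX3X, an RNA helicase (0.112), and POGLUT1, a glycosyltransferase that acts on Notch (0.113). Of the 35, RPL39 stood at place 33 (0.767) and RPS20 at place 35 (0.906) in likeness to EIF4G2. The tables name genes that the study had selected on these lanes, and most genes of the count table had no symbol to be considered.

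The exon parts differed in how the counts were spread. RPS20 has 5 parts in 4 blocks of adjoining parts, RPL39 has 3 parts in 3 blocks, and EIF4G2 has 28 parts in 22 blocks. Parts shorter than the read length of 75 bases number 3 in RPS20, 1 in RPL39 and 6 in EIF4G2. A fragment that touches several parts was not assigned by the authors, and which of the parts are coding or untranslated was not analysed here.

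In the ribosomal protein genes, nearly all counts lay in the part at the 3′ end. Exon part 1 of RPS20 (111559784 to 111560005, 222 bases) is at the 3′ end, since the gene is on the minus strand. It had 7936 and 8110 counts in alcohol lanes, against 13523 and 13384 in control lanes, which was 97.1% and 96.9% of the counts of the gene after alcohol and 98.4% and 98.3% in control. Exon part 3 of RPL39 (16569101 to 16569428, 328 bases) had 7653 and 7629 counts in alcohol lanes, against 11629 and 11701 in control lanes. This was 96.0% and 95.5% of the counts of RPL39 after alcohol and 97.3% and 97.2% in control. In both genes the share of the 3′ part was lower in both alcohol lanes than in both control lanes, by less than 2 percentage points.

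EIF4G2 had the most counts in exon part 25 (8762710 to 8763531, 822 bases), which is not the last part. It had 18510 and 17870 counts in alcohol lanes, against 17375 and 16769 in control lanes, and a share of 67.1% and 65.4% after alcohol against 70.3% in both control lanes. Exon part 27 (408 bases) had 10.3% and 10.004% after alcohol and 11.3% and 11.7% in control. Exon part 19 (228 bases) had 6.17% and 6.55% after alcohol and 4.80% and 4.90% in control. No other part of EIF4G2 reached 5% of the counts. Per base, part 25 held 34.6% of the summed density of all parts, against 93.8% for part 1 of RPS20 and 90.1% for part 3 of RPL39, so the assigned counts of the translation factor were spread over more of its parts. Outside these leading parts, RPS20 has parts of 34 to 97 bases and RPL39 parts of 48 and 104 bases, while EIF4G2 also has parts of 205 to 408 bases. In each gene the leading part is also the longest one. How far part length and the loss of fragments that touch several parts made this contrast was not tested.

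The counts upstream of the leading part took a larger share after alcohol in all 3 genes. Over all genes, too, the change of a part relative to its gene was higher farther from the 3′ end, as given below. How many genes show such a difference in upstream share was not counted. In RPS20 the 4 upstream parts held 238 and 257 counts, or 2.91% (Wilson interval 2.57% to 3.30%) and 3.07% (2.72% to 3.46%), in alcohol lanes. In control lanes they held 223 and 238 counts, or 1.62% (1.42% to 1.85%) and 1.75% (1.54% to 1.98%), and the intervals of the groups did not overlap. In RPL39 the 2 upstream parts held 3.98% (3.57% to 4.43%) and 4.53% (4.10% to 5.01%) in alcohol lanes and 2.70% (2.43% to 3.01%) and 2.799% (2.52% to 3.11%) in control lanes. In EIF4G2 the 24 upstream parts held 22.6% (22.1% to 23.1%) and 24.6% (24.1% to 25.1%) in alcohol lanes, against 18.4% (17.9% to 18.8%) and 18.0% (17.5% to 18.5%) in control lanes. The mean share in alcohol lanes was 1.78 times that in control lanes in RPS20, 1.55 times in RPL39 and 1.30 times in EIF4G2. In RPS20, 3 of the 4 upstream parts are shorter than the reads. Scaled to all counts, the upstream parts of RPS20 stood at 15.5 and 15.1 CPM after alcohol against 10.6 and 11.4 CPM in control, while its 3′ part stood at 516 and 477 CPM against 645 and 642 CPM. On this scale both alcohol lanes lay above the control lanes upstream and below them at the 3′ end of RPS20, and with TMM none of its 4 upstream parts was called for abundance. The upstream parts of RPL39 had 20.6 and 21.3 CPM after alcohol, against 15.4 and 16.2 CPM in control, and with TMM neither was called for abundance.

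**Figure D4:**
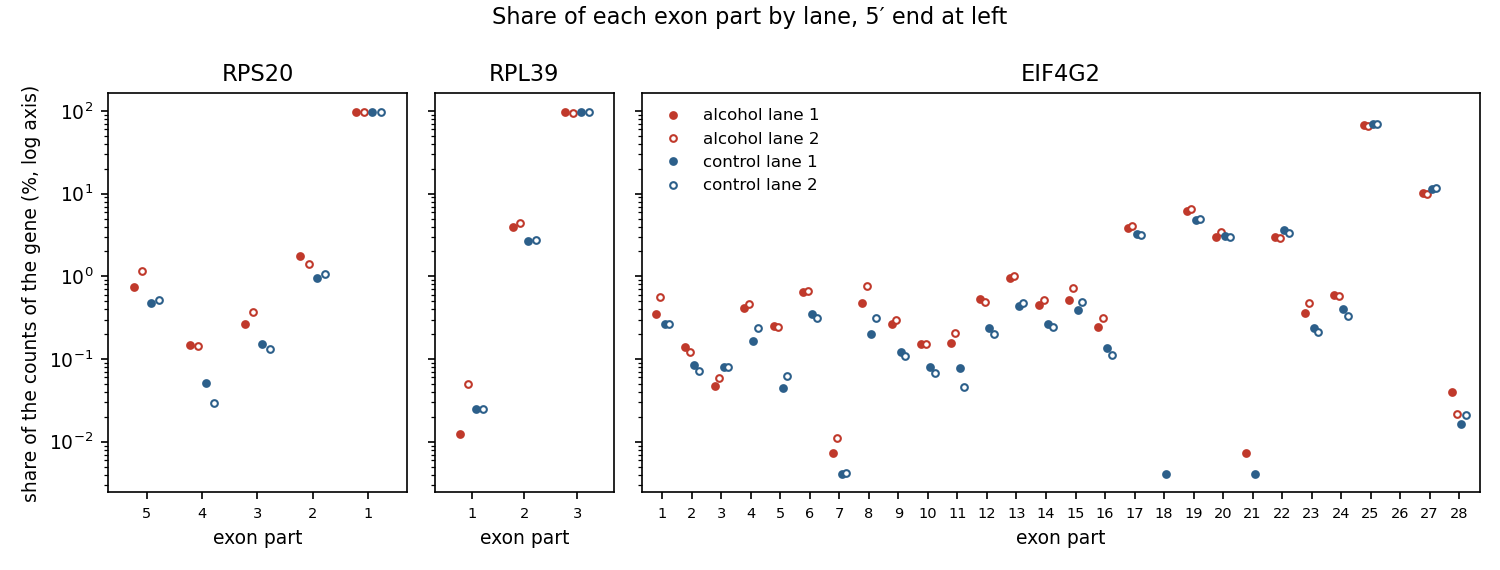
Share of the counts of its gene in each exon part (vertical axis, percent, log scale), from the 5′ end at left, in alcohol lanes (red) and control lanes (blue), and parts with 0 counts in a lane have no point there. The part at or near the 3′ end led in every lane, with 97.1% and 96.9% after alcohol against 98.4% and 98.3% in control for RPS20, and most parts left of it lay higher in alcohol lanes.

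Over all tested parts, 36.6% had a share that was higher in both alcohol lanes than in both control lanes and 17.7% had one that was lower in both. Of the 32 parts of the 3 genes that could be tested, 24 were higher in this sense, 6 were lower and 2 overlapped. The 6 lower ones were the 3′ parts of RPS20 and RPL39 and 4 parts of EIF4G2. The 4 parts of EIF4G2 that could not be tested had fewer than 10 counts in all, and are between 1 and 67 bases long.

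Usage is the log2 change of a part less that of its gene, and 94274 parts could be tested for it in edgeR, of which 4.36% were called higher and 0.511% lower after alcohol. Of the 32 tested parts of the 3 genes, 17 were called higher and 0 lower, 3 in RPS20, 1 in RPL39 and 13 in EIF4G2. Parts of a gene share its lanes and its total, so these counts, like those of the shares above, are not of separate observations. The median usage change of the 32 parts was 0.76, against 0.21 over all tested parts. The number of calls changed with the control lanes used and with the model. Without control lane 2, 9 parts (8 in EIF4G2) were called, without control lane 1 there were 13 (12 in EIF4G2), and the model of DEXSeq, which compares a part with the sum of the rest of its gene, called 3, all in EIF4G2. With each lane as its own library, a setting chosen after seeing the data, that model called 15 parts, of which 11 were higher parts of EIF4G2, and part 1 of RPS20 (-0.85) and part 3 of RPL39 (-0.65) were called lower.

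The parts of RPS20 other than the 3′ one had few counts. Exon part 4 (111560889 to 111560922, 34 bases) had 12 and 12 counts in alcohol lanes against 7 and 4 in control lanes, and the highest usage change of the gene, 1.84 (SE 0.54, Benjamini-Hochberg adjusted p = 0.0458 in edgeR's quasi-likelihood test). Part 3, which adjoins it, had 22 and 31 counts after alcohol against 21 and 18 in control, with a usage change of 1.16 (adjusted p = 0.0630). Part 5, at the 5′ end, had 61 and 96 counts after alcohol against 65 and 71 in control, with a usage change of 0.92 (adjusted p = 0.0409). The value of part 5 was 1.21 without alcohol lane 1 and 0.59 without alcohol lane 2. Part 2 had 143 and 118 counts after alcohol against 130 and 145 in control and was not called (0.66, adjusted p = 0.122). For part 1 the usage change was -0.02. Since this part holds nearly all counts of the gene, its change and that of the gene are nearly the same on a common scale. With the total of all counts they were -0.37 for part 1 and -0.35 for the gene. Without control lane 2, parts 3 and 4 were not called (adjusted p = 0.203 and 0.232). Without control lane 1, parts 3 and 5 were not called (adjusted p = 0.125 and 0.127), and none of the 5 parts was called under the model of DEXSeq.

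In RPL39, exon part 2 (16567337 to 16567440, 104 bases) had 316 and 358 counts in alcohol lanes, against 320 and 334 in control lanes. Scaled to all counts this was 20.5 and 21.1 CPM after alcohol against 15.3 and 16.0 CPM in control, while part 3 stood at 497 and 449 CPM after alcohol against 555 and 561 CPM in control. On this scale, where the median change of all parts was 0.63, the alcohol lanes of part 2 lay above the control lanes and those of part 3 below them. With TMM the abundance of part 2 was not called (-0.18, adjusted p = 0.650 in edgeR's quasi-likelihood test). The usage change of part 2 was 0.62 (SE 0.21, Benjamini-Hochberg adjusted p = 0.0906 in edgeR's quasi-likelihood test). This usage call was lost without control lane 1 (adjusted p = 0.158) and without control lane 2 (adjusted p = 0.123). Part 1, of 48 bases, had 1 and 4 counts after alcohol and 3 in each control lane, and no difference was detectable at this depth. Part 3 had a usage change of -0.02.

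In EIF4G2, 13 of 24 tested parts were called higher, and all but part 23 lay in the 5′ stretch between part 1 and part 16. Exon part 5 (8755510 to 8755612, 103 bases) had the largest change of the 3 genes. It had 70 and 66 counts in alcohol lanes, against 11 and 15 in control lanes, and a usage change of 2.20 (SE 0.34, Benjamini-Hochberg adjusted p = 1.70e-05 in edgeR's quasi-likelihood test). Both alcohol lanes were more than 4 times above both control lanes, although their totals were smaller. Exon part 11 (99 bases) had 43 and 57 counts after alcohol against 19 and 11 in control, with a usage change of 1.54 (adjusted p = 0.00412). Exon part 13 (161 bases), which had the most counts of the called parts, had 261 and 277 counts after alcohol against 108 and 113 in control, and a usage change of 1.1 (adjusted p = 0.00222). Exon part 8 (152 bases) had 133 and 209 counts after alcohol against 50 and 75 in control, and a usage change of 1.25 (adjusted p = 0.00125). The 2 alcohol lanes were unlike each other in this part, at 0.482% and 0.765% of the gene, and both were above the control lanes at 0.202% and 0.314%.

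The other called parts of EIF4G2 had usage changes of 1.28 (part 9), 1.22 (part 12), 1.14 (part 4), 1.14 (part 16), 1.04 (part 10), 0.99 (part 6), 0.91 (part 14), 0.88 (part 23) and 0.78 (part 1). The value of part 1 was 1.102 without alcohol lane 1 and 0.40 without alcohol lane 2. Parts 1 and 10 were not called without control lane 1 (adjusted p = 0.158 and 0.133), and parts 1, 10, 14, 16 and 23 were not called without control lane 2. The 12 parts of EIF4G2 called without control lane 1 include a part that was not called in the main fit. In the main fit, the adjusted p-values of these other called parts in edgeR ran between 0.00264 for part 12 and 0.0720 for part 10. Parts 5, 12 and 13 were the ones that the model of DEXSeq also called, with changes of 2.21, 1.22 and 1.11. The 11 tested parts that were not called ran between -0.61 and 0.74. The 3 parts with the most counts were among them, part 25 with -0.09 (SE 0.18), part 27 with -0.18 (SE 0.18) and part 19 with 0.39 (SE 0.19). Within the 5′ stretch, part 3 was the only tested part with a usage change below 0, with 13 and 16 counts after alcohol against 20 and 19 in control (-0.61, adjusted p = 0.475), and it was singled out after its value was seen.

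Taken by position, the 18 parts of EIF4G2 that lie at least 2000 bases from the 3′ end held 2611 and 2907 counts in alcohol lanes, against 1531 and 1486 in control lanes. This was 9.46% (Wilson interval 9.12% to 9.81%) and 10.6% (10.3% to 11.0%) of the gene after alcohol, against 6.20% (5.90% to 6.503%) and 6.23% (5.93% to 6.54%) in control. The 6 parts between 1000 and 2000 bases from the end held 13.1% and 13.97% after alcohol and 12.2% and 11.8% in control. Nearer to the 3′ end, part 25 and part 27 had a lower share in both alcohol lanes than in both control lanes. The order did not follow position throughout, as 2 parts named after their values were seen show. Part 28, at the 3′ end, had 11 and 6 counts after alcohol against 4 and 5 in control. Part 22, between 1000 and 2000 bases from the end, had a lower share after alcohol (2.98% and 2.90%) than in control (3.63% and 3.35%).

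The usage change was higher at a larger distance from the 3′ end over all genes, so the values of the 3 genes were set beside parts at a like distance. Whether this goes with treatment or run cannot be told apart. The match was on distance alone, not on part length or on counts. Called parts of EIF4G2 other than part 1 (262 bases) have 84 to 161 bases. Its other parts of 205 to 822 bases were not called, nor were some of 111 to 127 bases. The called parts of RPS20 have 34 to 97 bases. How far length bears on the calls was not tested. The median usage change of all tested parts was -0.12 within 250 bases of the 3′ end, -0.02 between 250 and 500 bases, 0.12 between 500 and 1000 bases, 0.35 between 1000 and 2000 bases and 0.48 beyond. Called higher were 0.506%, 1.17%, 2.28%, 5.21% and 7.70% of the parts in these classes. Of the 32 parts of the 3 genes, 25 lay above the median of their class. EIF4G2 holds 24 of these 32, and parts of a gene are not separate observations. In RPS20 the 4 upstream parts lie between 250 and 500 bases, and their usage changes of 0.66 to 1.84 compare with the class median of -0.02. Counted in parts from the 3′ end, they stand at places 2 to 5. The medians of all tested parts at these places were 0.03, 0.13, 0.21 and 0.26. The 2 upstream parts of RPL39, at 0.33 and 0.62, are in the same distance class. In EIF4G2, 13 of the 16 tested parts beyond 2000 bases lay above the class median of 0.48, and 12 of these 16 were called, with a median of 1.07. With the class median taken off, the change of part 5 was 1.72 and that of part 1 was 0.29. The 3′ parts of RPS20 and RPL39 lay slightly above their class median, at 0.10 over it each, and both are among the 25. A part with nearly all counts of its gene has a usage change near 0 by definition, so the class median is no test for them. Against the rest of the gene, the model of DEXSeq gave -0.85 and -0.65, neither of them called.

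**Figure D5:**
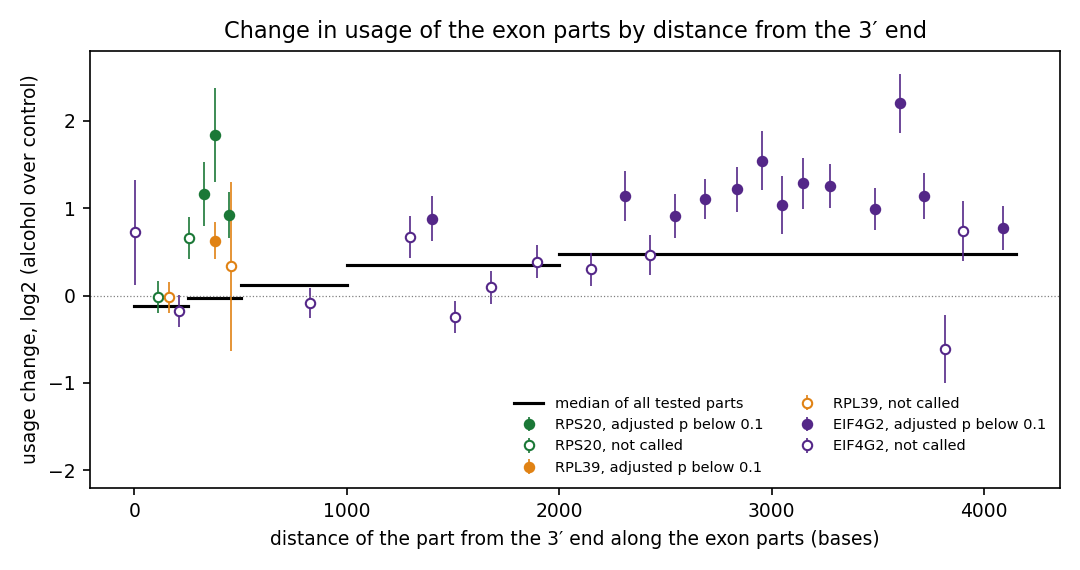
Usage change, log2 of alcohol over control (vertical axis), of each tested exon part against its distance from the 3′ end along the exon parts in bases, with bars of 1 SE, filled points for an adjusted p below 0.1 and black lines for the median of all tested parts in 5 distance classes. The upstream parts of RPS20 (0.66 to 1.84) and 13 of 16 parts of EIF4G2 beyond 2000 bases stood above the medians of -0.02 and 0.48, while the part with the most counts stood at -0.02 in RPS20, -0.02 in RPL39 and -0.09 in EIF4G2.

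The abundance of single parts, without regard to the gene, was also tested, over 98031 parts of which 8.48% were called lower and 5.68% higher after alcohol. Of the 3 genes, 2 parts were lower and 14 were higher. The lower ones were part 1 of RPS20 (-0.97, SE 0.21, adjusted p = 3.56e-04) and part 3 of RPL39 (-0.83, SE 0.21, adjusted p = 0.00304), and the 14 higher ones were all in EIF4G2 (quasi-likelihood test in edgeR, Benjamini-Hochberg adjusted). They were the 13 parts called for usage together with part 24 (0.63, adjusted p = 0.0775). The largest was again part 5 (2.16, adjusted p = 1.11e-07). The most abundant part of EIF4G2, part 25, was not called (-0.13, SE 0.22, adjusted p = 0.796). TMM was computed here over parts, so these changes are not on the scale of the gene changes of -0.71, -0.57 and 0.20. With the total of all counts as the scale, where the median of all parts was 0.63 in place of 0.04 with TMM, part 25 was called higher (0.47, adjusted p = 0.00791), and part 3 of RPL39 was not called (-0.24, adjusted p = 0.212). Against that median part 25 stayed below the bulk of the parts on both scales, as it must where a scaling moves all parts nearly alike. The split of calls was 5569 higher and 8316 lower with TMM, 15260 higher and 3241 lower with the total less mitochondrial counts, and 30428 higher and 1444 lower with the total of all counts.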

How the data were processed

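The deposited counts are raw counts of fragments per exon part, which the authors made with featureCounts 1.5.2, without regard to strand, from 75 base paired reads that Bowtie2 had placed on Gallus gallus 5.0. Fragments that touch several parts were left unassigned. The signal values of a further deposited table are the counts that the authors normalized with DEXSeq size factors for the exons they had called. They served for 1 alternative alone. Its columns of fold changes and usage coefficients hold the authors' own comparisons and were not used.

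Counts of parts were summed per gene. Lanes of a group were summed where the chi-square per degree of freedom, over genes with at least 10 counts, was below 1.1. All genes or parts with at least 10 counts were fitted with edgeR 4.0.16 in R 4.3.3 (TMM, quasi-likelihood, diffSpliceDGE for usage in genes with 2 or more such parts), with Benjamini-Hochberg adjustment over the whole table and a false discovery rate of 0.1. The model of DEXSeq and the Wald test were run with DESeq2 1.42.0. Log2 changes are alcohol over control. Fits were run on simulated counts with a fixed spread and known changes of a single size, which sets no bound on false calls in these lanes.

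Shares have Wilson intervals and CPM exact Poisson intervals, both at 95%. A count of 0 allows up to 3 counts, or 0.143 to 0.195 CPM by lane. Distance from the 3′ end was summed along the parts of a gene, to the middle of the part.

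Named were the 3 genes, every part of RPS20 and RPL39, parts of EIF4G2 with at least 5% of the counts of the gene or called for usage, other translation genes with a symbol, and the 2 most similar genes with at least 1000 counts. The genes, lists and distance classes were chosen with earlier results of these data known. Symbols for 36 single identifiers were taken from the study's tables, and combined identifiers of overlapping genes were left out. Identifiers of the later reference GRCg7b matched 0 of the table's.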

Additional observations from a re-analysis of the deposited data

How the results depend on the processing

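The 2 alcohol lanes carry all of the spread in the tests. With the total of all counts as the scale, the change of RPL39 was -0.22 (no longer called) and that of EIF4G2 was 0.55 (called). That of part 25 of EIF4G2 was 0.47 in place of -0.13 with TMM. The genes shared a shift, with a median of 0.36 in place of 0.01. The parts shared a larger one, with a median of 0.63 in place of 0.04. With each lane as its own library EIF4G2 was called at 0.20. Called genes numbered 4933, against 7826 with the total of all counts, 7746 with each lane as its own library and 1747 with DESeq2's Wald test. Parts called for abundance numbered 13885, against 31872 with the total of all counts and 4564 with the Wald test. Parts called for usage numbered 4590, against 414 with the model of DEXSeq, 9125 with each lane as its own library, 2729 with no filter on low counts and 1960 to 2139 without a control lane. Of the 3 genes, 17 parts were called for usage, against 3 with the model of DEXSeq and 9 to 13 without a control lane, and in EIF4G2 13, against 3 and 8 to 12. The cause was not tested.

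With the most abundant part alone the difference in log2 change was -0.84 for RPS20 minus EIF4G2 (main -0.90) and -0.70 for RPL39 minus EIF4G2 (main -0.77), and without 1 lane the value of RPL39 ran between -0.80 and -0.74. Divided by length, the leading part held 93.8% in RPS20, 90.1% in RPL39 and 34.6% in EIF4G2, in place of 97.8%, 96.6% and 68.1% of counts. Without mitochondrial counts in the total, levels in CPM per kilobase were 1552 in alcohol and 2380 in control lanes for RPS20, 1539 and 2143 for RPL39 and 603 and 493 for EIF4G2. With parts of at least 75 bases alone they were 1571 and 2027 for RPS20, 1143 and 1328 for RPL39, and 287 in control lanes for EIF4G2. In the tally that follows, a value called neither in the main fit nor under the other setting counts as a kept call, whatever its size. It therefore gives no rate of loss among the called parts. Of the 269 values of single parts under other settings, 146 were tested and kept direction and call, 36 lost the call, 5 gained it, and 77 had no test and kept their direction. The other 5 changed sign, namely part 25 of EIF4G2 for abundance with the total of all counts, with the total less mitochondrial counts (0.20) and without alcohol lane 2 (0.03), and, with the class median by distance taken off, the usage of part 1 of RPS20 (0.10) and of part 3 of RPL39 (0.10).

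Without an alcohol lane 1 library a group is left, so changes were computed with no test and calls could not be counted. The comparison by distance from the 3′ end, the model of DEXSeq on single lanes and the deposited normalized counts were added after seeing the data. No paired analysis was possible because the lane numbers mark no shared pool, litter or run.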
